A study of Mus musculus with 2 samples.

Results

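The miR-193 family of the mouse has a pair of paralogous hairpins, mir-193a on chromosome 11 and mir-193b on chromosome 16. They were followed in small RNA libraries of helper T cells. Of 1125 mature miRNAs listed in at least 1 of 2 libraries, 4 came from these hairpins: miR-193a-3p, miR-193a-5p, miR-193b-3p and miR-193b-5p. These rows were taken by the hairpin name that the deposited tables give. The pair was chosen on the measured reads of miR-193a-3p and miR-193b-3p, because they moved apart between the libraries. The size and direction of that movement are therefore described and not tested.

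Both libraries came from naive CD4+CD62L+ T cells of the spleen of female C57BL/6 mice, cultured with 10% serum, with 1 library per group. The Th0 group, the control, received anti-CD28 at 1 µg/ml together with antibodies against IL-4 and IFN-γ, each at 5 µg/ml. The Th17 group received those antibodies at the same concentrations, and in addition 5 µg/ml of anti-IL-2 and 5 µg/ml of anti-IL-12. Its cytokines were 2 ng/ml of TGF-β, 40 ng/ml of IL-6, 10 ng/ml of IL-1β and 40 ng/ml of IL-23, and cells were kept for 6 to 7 days. The labels give no length of culture for the Th0 cells, so time in culture and Th17 conditions cannot be told apart. The study's design names triplicates, but 1 column of reads per group was analysed, so no p-value can be given and the spread between cultures is unknown. Every interval below is a 95% interval of counting error in these 2 libraries. No molecular identifiers are named in the labels, so reads may be PCR copies of fewer molecules, and the intervals cover counting error only.

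A miRNA finds its targets mainly through its seed, bases 2 to 8, which pair with the messenger RNA, so paralogs with 1 seed can repress overlapping targets. The miR-193 family is known for repressing Kit, the receptor of stem cell factor, Mcl1, a survival protein of lymphocytes, and Ccnd1, a cyclin of the G1 phase. In T cell acute leukaemia miR-193b-3p has been described as a tumour suppressor that represses Myb. Each mir-193 hairpin has a mir-365 hairpin as a neighbour, and the mir-193b and mir-365 cluster is also known for its part in brown fat differentiation.

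The mature 3p arms are shown first, because the results turn on them. Their seeds are in capitals, and the sequences are those of RefSeq on GRCm38.p6.
miR-193a-3p: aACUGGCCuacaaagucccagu
miR-193b-3p: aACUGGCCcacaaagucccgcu
Both arms had the seed ACUGGCC and were 22 bases long, with 19 bases identical. Counted from 1 at the 5′ end, with the base of miR-193a-3p first, they differed by U9C, A20G and G21C. The first of these lies just behind the seed and the others next to the 3′ end. Among the 935 listed miRNAs with a sequence in the RefSeq table, these 2 alone had this seed. The labels do not say how reads that could match both paralogs were assigned.

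The hairpins are shown because they hold the less used 5p arms, with both mature arms in capitals.
Mir193a: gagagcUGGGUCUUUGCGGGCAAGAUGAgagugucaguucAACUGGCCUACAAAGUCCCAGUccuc
Mir193b: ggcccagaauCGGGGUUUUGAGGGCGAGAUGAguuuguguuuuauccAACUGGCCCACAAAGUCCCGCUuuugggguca
The 5p arms were less alike than the 3p arms, with 17 of 22 bases identical. Starting from miR-193a-5p, the changes were U1C, U5G, C6U, C11A and A16G, so the 5p arms do not share a seed.

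Mir193a lies on the plus strand at chr11:79711969-79712034 (GRCm38, the assembly of mm10), and no other gene of GENCODE M21 overlaps it. Mir365-2 follows on the same strand at chr11:79726400-79726511, with 14365 bases between them. Mir193b lies on the plus strand at chr16:13449523-13449601, and Mir365-1 follows 4238 bases further at chr16:13453840-13453926. Both chromosome 16 hairpins sit in introns of Gm15738, a noncoding gene annotated on the opposite strand, and in no exon other than their own.

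miR-193a-3p was the paralog with more reads in Th0 and with fewer reads in Th17. It had 300 reads in Th0 and 71 in Th17, which is 35.9 CPM (reads per 1000000 listed reads) in Th0 (31.9 to 40.2) and 5.93 CPM in Th17 (4.63 to 7.48). Its level was thus 6.05-fold lower in the Th17 library (4.66 to 7.96). By number of reads it ranked 220 of the 986 miRNAs listed in Th0 and 335 of the 1012 listed in Th17.

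miR-193b-3p showed the opposite order, with its low value in Th0 and its high value in Th17. It had 44 reads in Th0 and 330 in Th17, or 5.26 CPM (3.83 to 7.07) and 27.6 CPM (24.7 to 30.7). Its level was 5.23-fold higher in the Th17 library (3.81 to 7.34), and its rank went from 345 to 228. The counting intervals of the libraries did not overlap for either paralog. Across the paralogs, the level of miR-193a-3p in Th17 lay within the interval of miR-193b-3p in Th0.

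**Figure D1:**
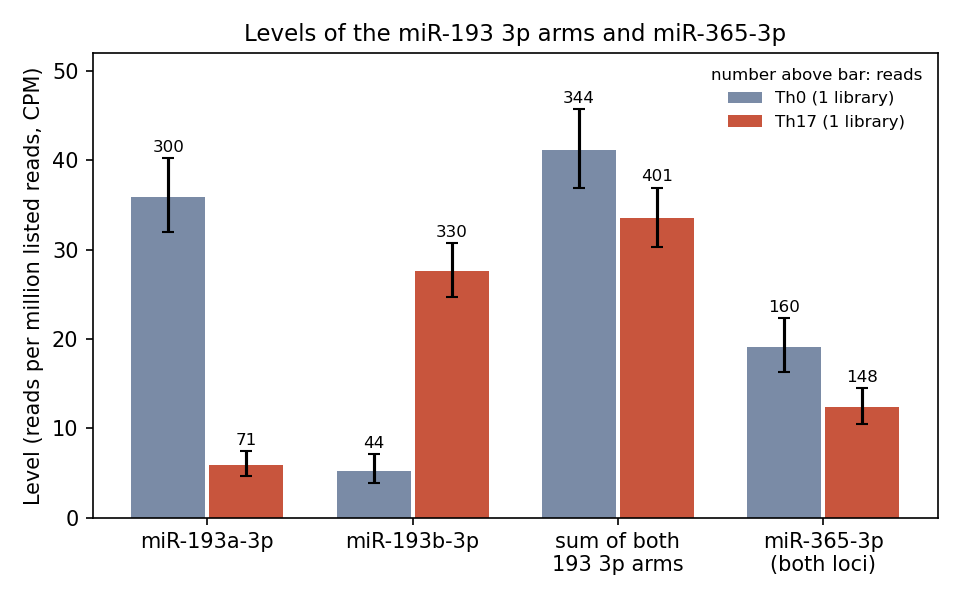
Levels in CPM (y axis) of miR-193a-3p, miR-193b-3p, the sum of both and miR-365-3p in the Th0 and Th17 libraries, 1 library each. Bars are levels, error bars are exact 95% Poisson intervals of counting error, and the number above each bar is its reads. miR-193a-3p stood at 35.9 and 5.93 CPM and miR-193b-3p at 5.26 and 27.6 CPM, while their sums were 41.2 and 33.5 CPM.

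Most reads with the shared seed belonged to miR-193a-3p in Th0 and to miR-193b-3p in Th17. Sums and shares of the paralogs count reads and take both arms to be captured equally well, which was not checked. Together the 3p arms had 344 reads in Th0 and 401 in Th17, or 41.2 CPM (36.9 to 45.7) and 33.5 CPM (30.3 to 36.9). The sum was 1.23-fold lower in Th17 (1.06 to 1.42), a much smaller difference than that of either paralog. In Th0 12.8% of the summed reads were miR-193b-3p (9.45 to 16.8%, exact binomial interval). In Th17 its share was 82.3% (78.2 to 85.9%). In Th0 miR-193a-3p had 6.82 reads for each read of miR-193b-3p, and in Th17 miR-193b-3p had 4.65 reads for each read of miR-193a-3p. The ratio of miR-193b-3p to miR-193a-3p was 31.7 times as high in Th17 as in Th0 (exact conditional interval 20.7 to 48.7). This ratio of ratios needs no scaling of the libraries, because each ratio is taken within 1 library.

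**Figure D2:**
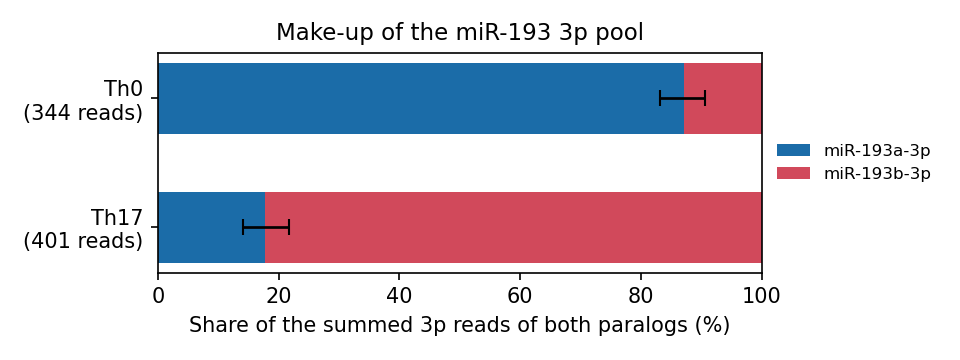
Share (x axis, %) of miR-193a-3p and miR-193b-3p in their summed 3p reads in the Th0 and Th17 libraries. Black bars are exact binomial 95% intervals of the boundary. miR-193b-3p took 12.8% of 344 reads in Th0 and 82.3% of 401 reads in Th17.

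The members were next set against all miRNAs. A miRNA was called where its mean over both libraries was at least 10 CPM, its levels differed at least 2-fold and its interval excluded a ratio of 1. Both 3p arms passed the minimum and were called, miR-193a-3p as lower and miR-193b-3p as higher in Th17. Each passed only through the library where it was high, with miR-193a-3p at 5.93 CPM in Th17 and miR-193b-3p at 5.26 CPM in Th0. From such low values a mean of 10 CPM already requires a difference above 2-fold, so the calls are no support for the movement. Of the 298 miRNAs that passed the minimum, 6.71% were called higher and 13.1% lower. Among the 140 miRNAs whose mean lay between 10 and 100 CPM, a range chosen after the values were seen because it holds both paralogs, 5% were called higher and 17.1% lower. Since the rule used this contrast, these shares are background only. On the log2 scale with 0.5 CPM added to both levels, miR-193a-3p had a ratio of -2.50, the ninth lowest, and miR-193b-3p of 2.28, the fourth highest of the 298. The median of the 298 was -0.080.

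**Figure D3:**
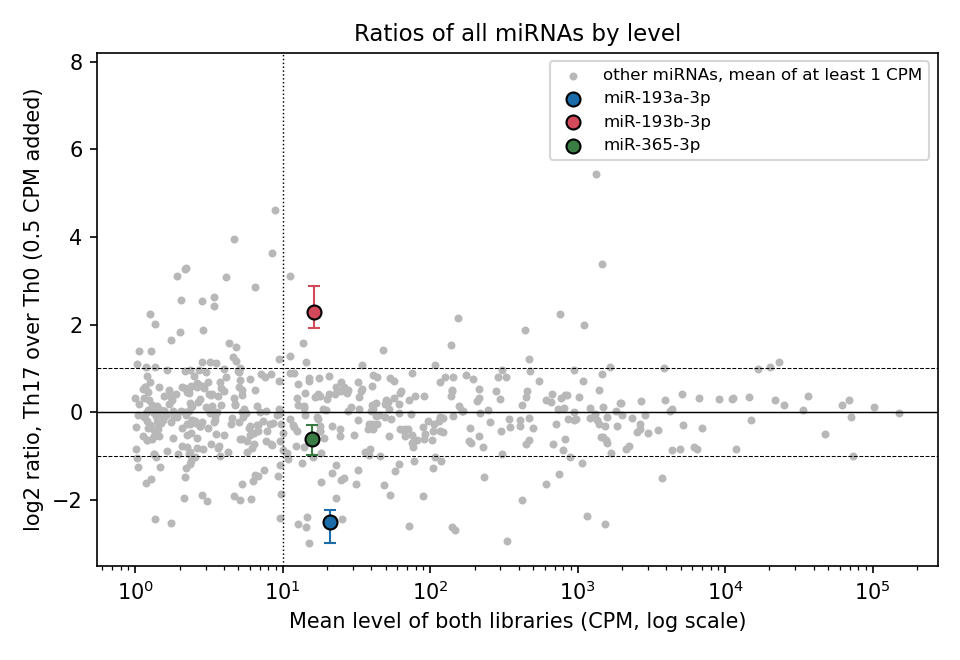
Log2 ratio of Th17 over Th0 with 0.5 CPM added (y axis) against the mean level of both libraries in CPM (x axis, log scale) for miRNAs whose mean reached 1 CPM. Coloured points are miR-193a-3p (-2.50), miR-193b-3p (2.28) and miR-365-3p (-0.61), and their bars are 95% counting intervals of the ratio without the addition. The dotted line marks 10 CPM and the dashed lines 2-fold.

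The 5p arms of both hairpins were close to the limit of detection. miR-193a-5p had 0 reads in Th0 and 1 in Th17, and miR-193b-5p had 0 and 4. With 0 reads of 300 in Th0, the exact binomial interval lets the 5p arm of mir-193a hold up to 1.22% of the reads of its hairpin. With 0 of 44 it lets that of mir-193b hold up to 8.04%. In Th17 the 5p shares were 1.39% for mir-193a (exact binomial interval 0.035 to 7.50%) and 1.20% for mir-193b (0.33 to 3.04%). All of these intervals overlapped. Overlap is not a test of a difference, so arm use was not compared further between the hairpins or the libraries, and this depth does not resolve it. The strong use of 1 arm was ordinary here: of 169 hairpins with at least 100 reads in Th17 and mature arms that name 1 hairpin, 72 had a minor arm share at or below that of mir-193b, and the median was 1.95%. An arm that was not listed counted as 0 reads, which lowers these shares, and the 72 include mir-193b itself. No fold is given for the 5p arms, because 3 reads, the limit that a count of 0 allows, are already 0.359 CPM in Th0, and miR-193b-5p stood at 0.334 CPM in Th17.

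The neighbouring mir-365 hairpins were not used in choosing the pair. Both make the same miR-365-3p, whose reads cannot be divided between the chromosomes. It had 160 reads in Th0 and 148 in Th17, or 19.1 CPM (16.3 to 22.4) and 12.4 CPM (10.4 to 14.5), 1.55-fold lower in Th17 (1.23 to 1.95), and it was not called. Like the summed miR-193 3p arms, it was lower in Th17 by less than 2-fold. Such an outcome was common: among the 298, the interval lay below a ratio of 1 for 47.7%, while 13.1% were called lower. The likeness therefore does not set miR-365-3p or the family apart, and a link between the loci was not tested.

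The 5p arms of the mir-365 hairpins do differ in sequence and so name their locus. They are shown for that reason, with the bases outside the seed in lower case.
miR-365-2-5p: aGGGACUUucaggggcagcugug
miR-365-1-5p: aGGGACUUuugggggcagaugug
They are 23 bases long with 20 identical, and from miR-365-1-5p to miR-365-2-5p the changes are U10C, G11A and A19C. miR-365-2-5p, from the chromosome 11 locus of mir-193a, had 8 reads in Th0 and 2 in Th17. That was 5.73-fold lower in Th17 (1.14 to 55.4), the same direction as miR-193a-3p. miR-365-1-5p, from the chromosome 16 locus of mir-193b, had 0 and 2 reads, which is within the limit of 3 reads that a count of 0 allows. Neither reached a mean of 10 CPM, and on so few reads the order of the mir-365 loci was not resolved.

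To place the pair among like pairs, all same-arm miRNAs that share a number, differ in letter and have the same seed were compared, with a mean of at least 10 CPM for each. There were 58 such pairs from 54 miRNAs, and 28 of them were pairs of let-7 members. Pairs that share a miRNA are not independent. The log2 ratios of miR-193a-3p and miR-193b-3p differed by 4.78, against a median of 0.49 over all pairs and of 0.99 over the 30 pairs outside let-7. Among the 58, the miR-10a-5p and miR-10b-5p pair, encoded in Hox clusters, was the only one further apart, by 5.82. The next were miR-92a-3p and miR-92b-3p, of the Mir17 type clusters and a separate locus, by 3.23. They were followed by miR-146a-5p and miR-146b-5p, known as brakes on NF-κB signalling, by 3.01, and by miR-200b-3p and miR-200c-3p, known from epithelia, by 2.36. In 2 pairs, or 3.45%, 1 paralog was called higher and the other lower, and these were the miR-193 and the miR-146 pair. Since the miR-193 pair was chosen for moving apart, and each of its arms passed the minimum through its high library, its place among the pairs is a description.

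**Figure D4:**
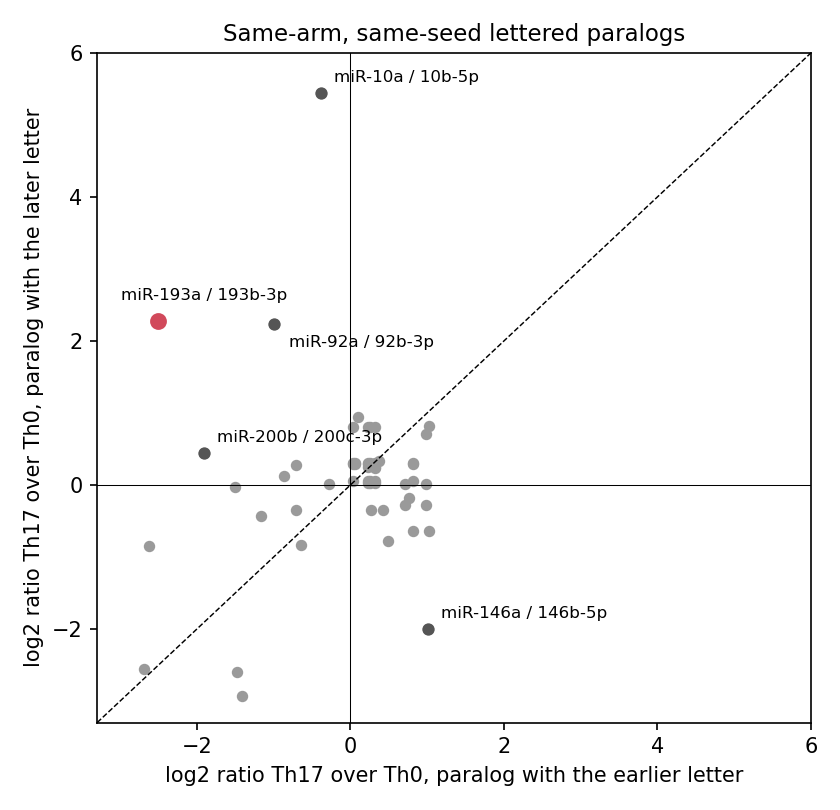
Log2 ratio of Th17 over Th0 for the paralog with the earlier letter (x axis) and the later letter (y axis) in 58 same-arm, same-seed pairs with a mean of at least 10 CPM each. Points on the dashed line would have equal ratios, and the 5 pairs furthest apart are named. The miR-193 pair lies at -2.50 and 2.28, a difference of 4.78.

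The miRNAs nearest to each paralog in level were found by the Euclidean distance over both libraries of log2 CPM with 0.5 CPM added. With only 2 libraries this describes a level and a ratio and nothing more. Nearest to miR-193a-3p were miR-363-5p at a distance of 0.41, with 360 reads in Th0 and 90 in Th17, miR-18b-3p at 0.58 with 306 and 109 reads, and miR-1949 at 0.65 with 230 and 105 reads. Nearest to miR-193b-3p were miR-1843b-3p at 0.50, with 56 and 251 reads, miR-3964 at 0.79 with 53 and 194 reads, and miR-6538 at 0.82 with 73 and 240 reads. The neighbours of miR-193a-3p were all lower in Th17 and those of miR-193b-3p all higher, as the measure of likeness requires.

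Other miRNAs known to repress targets of the family were read beside it. The list held miR-221-3p and miR-222-3p for Kit, miR-29b-3p for Mcl1, and miR-150-5p, miR-34a-5p, miR-15a-5p and miR-16-5p for Myb or Ccnd1. All 7 passed the minimum of 10 CPM and 0 were called, beside shares of 6.71% called higher and 13.1% called lower among the 298. For 2 of the 7 the interval lay above a ratio of 1 and for 5 below, beside 40.6% above and 47.7% below among the 298. With 7 members these counts do not set the list apart. Their median log2 ratio was -0.16, beside -0.080 for all miRNAs tested. The ends of the list were miR-221-3p, 1.63-fold lower in Th17 (1.60 to 1.67), and miR-29b-3p, 1.76-fold higher (1.67 to 1.85).

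Markers of the labelled cells and of other cells were read beside the pair. All 5 markers of the T cell and blood lineage were listed, with sums of 95954 CPM in Th0 and 133180 CPM in Th17. For 4 of the 5 the interval lay above a ratio of 1 and for 1 below, beside 40.6% above and 47.7% below among the 298. Only miR-155-5p was called, 2.21-fold higher in Th17, beside 6.71% called higher among the 298. At these depths small ratios exclude 1, as with miR-142a-5p, 1.13-fold higher. In contrast, miR-142a-3p, the other arm of that abundant blood hairpin, was 1.90-fold lower in Th17 (1.86 to 1.95). With 5 members these counts do not set the list apart. Of 15 markers of other cell types 14 were listed, with sums of 298 and 123 CPM, and 4 reached a mean of 10 CPM. The 4 were miR-126a-3p and the 3 epithelial markers, each with an interval below a ratio of 1, beside 47.7% below among the 298. All but miR-429-3p were called lower, beside 13.1% among the 298. This difference was not tested. By their sums the single types moved in both directions, but those higher in Th17 had no marker that reached the minimum. The stromal markers were higher in Th17, as was miR-193b-3p. Their 3 members had summed levels of 2.03 and 18.0 CPM in Th0 and Th17, with miR-143-3p at 6 and 73 reads and miR-199a-3p at 10 and 142 reads, while miR-145a-5p had 1 read in each. The 3 listed epithelial markers, miR-200a-3p, miR-200b-3p and miR-429-3p, summed to 230 and 75.6 CPM and so were lower in Th17, as was miR-193a-3p. Another miRNA of that family, miR-200c-3p, was not on the list and went the other way, with 23.1 and 31.7 CPM, 1.37-fold higher in Th17 (1.15 to 1.64). The family's miR-141-3p, also not on the list, went with the listed markers. It had 134 and 100 CPM and was 1.34-fold lower in Th17 (1.23 to 1.45). The endothelial miR-126a-3p stood at 47.7 and 14.9 CPM. The neural markers summed to 13.9 and 4.93 CPM, nearly all of it miR-9-5p. The myeloid, erythroid, liver and muscle markers ranged from 0 to 3.35 CPM in Th0 and from 0.084 to 6.76 CPM in Th17 as sums. All of these sums were higher in Th17, on few reads, with the myeloid miR-223-3p at 28 and 81 reads and the erythroid miR-451a at 6 and 24. Among the same markers, miR-144-3p and miR-122-5p had 0 reads in Th0, as did the neural miR-124-3p, and the muscle miRNA miR-1a-3p was in neither table. The part of such cells in the levels of the paralogs was not tested, and in bulk RNA a change in the number of cells and a change in RNA per cell cannot be told apart.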

How the data were processed

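Small RNA was sequenced from 1 Th0 and 1 Th17 library. Per the labels' protocols, RNA was isolated with a kit that keeps small RNA and TruSeq small RNA libraries were sequenced on a HiSeq instrument. Per the submitters' processing notes, the genome build was mm10. The aligner, the annotation release and the way triplicates were combined were not given in the sources used here. Deposited read counts are whole reads per mature miRNA, not normalized. The deposited TPM values are those counts divided by 1 total per library (9072995 reads for Th0, 13070648 for Th17), which was checked on the values. Listed reads summed to 8358010 and 11975371.

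Counts were joined by name, with 0 for a missing row, and scaled by the column sum. Ratio intervals are Clopper-Pearson intervals conditional on the summed reads (scipy 1.17.1), and the share and Poisson intervals are exact. The interval procedure was run on simulated Poisson counts with the true depths given. That is the model the intervals assume, so it checks the computation only. It holds no PCR copies, no spread between cultures and no error of scaling. Alternatives used TMM factors (edgeR 4.0.16), DESeq2 1.42.0 size factors, the TPM totals, a total without the 10 most abundant miRNAs, other additions to the CPM, and other minimums and folds. Of 136 lettered miRNAs at 10 CPM or more, 108 had a RefSeq sequence, and pairs needing the others were left out.

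Members, lists and tests were chosen with earlier results of these data known. Named miRNAs are the members, the mir-365 arms, the 3 nearest to each 3p arm, the 5 pairs furthest apart, and the ends or members of the lists of shared targets and cell markers. miR-141-3p was added beside the epithelial markers after the values were seen.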

Additional observations from a re-analysis of the deposited data

How the results depend on the processing

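The paralogs kept their directions and their calls under all 4 other scalings. Across scalings and additions to the CPM, the log2 ratio ran from -2.69 to -1.90 for miR-193a-3p and from 1.67 to 2.37 for miR-193b-3p, and with 5 CPM added the values were -1.90 and 1.67, since the addition is near the lower of their levels. The summed 3p level ran from -0.43 to -0.22. Summing both arms gave a ratio of ratios of 31.6. The scaling without the 10 most abundant miRNAs shifted ratios without an addition by -0.13 and also raised every CPM, so that 393 in place of 298 miRNAs passed the minimum. It gave 66 lower calls in place of 39 and 29 higher calls in place of 20. Other rules moved the background of 20 higher and 39 lower calls: 59 and 75 at a minimum of 1 CPM, 13 and 15 at 100 CPM, 69 and 100 with no minimum, 50 and 76 at 1.5-fold, and 7 and 24 at 10 to 100 CPM, a range added after seeing the data. Without the seed requirement there were 124 paralog pairs, and without let-7, also added after seeing the data, 30. At 100 CPM the miR-193 pair was not among the pairs, and no hairpin of the family had several rows of an arm, so those alternatives gave no value. No paired analysis was possible because each group has 1 library. Depth limits the 5p arms of all 4 hairpins, with 0 to 8 reads each.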
